A study of Mus musculus with 454 samples.

Results

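The members described here were 140 barcodes (12.64%) of a droplet library of the mouse nodose ganglion. They were those that scored highest for Rtp1, Cldn9, Chil1, Grp and Gas7. The score of a barcode was the mean over these 5 genes of log2(CPM + 1), where CPM is the number of unique molecular identifiers (UMIs) of a gene per 1000000 UMIs of the barcode. They were set against the 934 other barcodes with at least 500 CPM of Snap25, a synaptic gene that marks neurons, and 34 barcodes fell in neither set. All but 8 of the members also reached that Snap25 level. The 8 were kept, so not every member is shown to be a neuron. Because the 5 genes chose the members, their levels in the droplet library are a description and carry no test.

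The series comes from a study of vagal sensory neurons and feeding. Its droplet library (10x Genomics) was made from nodose ganglia of wild type C57BL/6 mice aged 6 weeks, and every other sample is a single picked cell of wild type C57BL/6 mice aged 8 to 12 weeks, sequenced by Smart-seq2. The deposited read table assigns each picked cell to 1 of 34 mice and to a target code (GastG, GastP, IntP, IntM, IntD, IntL, Port or na). The sources used here do not expand the codes, so they are used as written, with Gast and Int standing for every code that begins so.

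Vagal sensory neurons have their cell bodies in the nodose ganglion, send one branch to the heart, airways or gut and another to the brainstem, and fall into many types that differ in the receptors, channels and peptides they express. Rtp1 encodes a chaperone that brings odorant receptors to the cell surface, Cldn9 a tight junction claudin, Chil1 a secreted chitinase-like protein, and Gas7 a protein that binds actin and membranes. Grp encodes gastrin-releasing peptide, a signal of sensory and enteric neurons.

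The library held 68051490 UMIs. Members were shallower, with a median of 41551 UMIs (13570 to 73888) against 60590.5 (13505 to 169263) in the other neurons, and the median share of mitochondrial UMIs was 8.36% against 7.40%. Of the 8 pan-neuronal markers 0 were over 2-fold apart, and their sum stood at 6512 CPM in members and 9211 in other neurons. The 5 nodose-like markers summed to 1665 and 1714 CPM and the 5 jugular-like markers to 88.1 and 155.7, with the jugular-like marker Pou4f2 at 0 UMIs in members. The nodose-like sums hide opposite values: P2rx2 stood at 546 CPM in members and 262.5 in other neurons, and Htr3a at 85.8 and 581. No other nodose-like marker was over 2-fold apart. Markers of endothelial and immune cells stood at like sums in both sets. Schwann cell markers summed to 408.4 CPM in members and 349.4 in other neurons. Those of mural cells and fibroblasts summed to 25.5 and 15.2 CPM. Of 9 such genes 4 (44.4%) were over 2-fold higher and 2 (22.2%) lower, against 9.15% and 8.21% of all genes. Markers of satellite glia, which ensheath neuronal cell bodies, also stood higher in members, and their values are given below beside the results. A doublet caller marked 3 barcodes (0.271%), of which 0 were members, a share too low to take the caller as having worked, so doublets were not removed.

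The score had no step at the boundary. It ran from 2.22 to 7.18 among members with a median of 3.73, the 10 members nearest the boundary scored 2.22 to 2.34, and the first 10 barcodes outside it 2.08 to 2.22. A group of 58 members scored 4 or more, 45 scored below 3, and 37 lay between. The boundary therefore cut a range, not a separate population, and the values of the lowest members stand close to those of barcodes just outside.

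**Figure D1:**
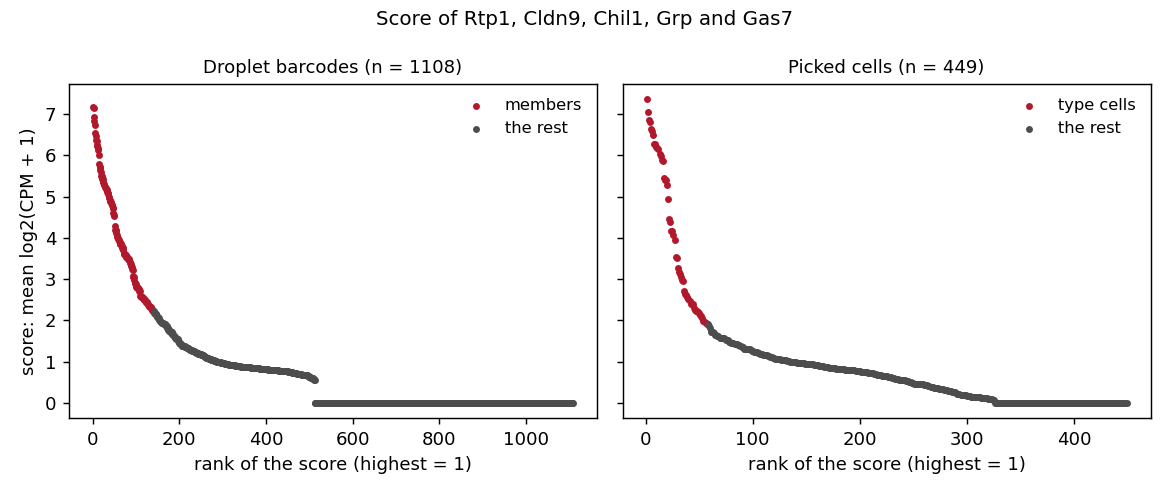
Score of every droplet barcode (left) and every picked cell (right), ordered from the highest; the y axis is the mean log2(CPM + 1) of the 5 genes, and red points are the 140 members and the 57 picked cells taken by the same share. The members run down to 2.22 and the picked cells to 1.92 with no gap below them.

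The 5 genes did not mark all members alike. Gas7 had a UMI in 94.3% of members, Rtp1 in 72.9%, Cldn9 in 66.4%, Chil1 in 62.9% and Grp in 28.6%. In the other neurons these shares were 20.8%, 4.07%, 6.96%, 9.96% and 2.57%. In the 34 barcodes of low Snap25, whose median depth was 14830.5 UMIs, Gas7 had a UMI in 29.4%, Cldn9 and Grp in 5.88%, Chil1 in 2.94% and Rtp1 in 0 (exact upper bound 10.3%). Only 18 members held a UMI of all 5, while 36 held 4, 49 held 3 and 37 held 2. With every barcode thinned to 13000 UMIs, Rtp1 remained in 50.7% of members and 1.61% of others, and Grp in 18.6% and 1.18%. The name Grp therefore describes 40 of the 140 members (exact Clopper-Pearson 95% interval 21.3 to 36.8%), and the most widespread gene of the 5 was Gas7.

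In summed UMIs Rtp1 stood at 71.9 CPM in members and 0.876 in other neurons, and Gas7 at 106.97 and 5.55 CPM. Cldn9 stood at 35.9 and 1.31, Chil1 at 42.6 and 2.01, and Grp at 29.8 and 1.07 CPM. Barcodes of at most 100 UMIs, which hold mostly free RNA, gave 22.4 CPM of Gas7, 6.41 of Cldn9, 3.20 of Chil1 and 1.60 of Rtp1 and of Grp, on 1 to 14 UMIs each. Grp was the most uneven of the 5: its median over members was 0 CPM, its upper quartile 21.1 and its highest value 735. By GENCODE M21 on GRCm38, Rtp1 lies at chr16:23429133-23433960 (plus strand), Cldn9 at chr17:23682584-23684026 (minus strand), Chil1 at chr1:134182176-134190181 (plus strand), Grp at chr18:65872820-65886596 (plus strand) and Gas7 at chr11:67455437-67688990 (plus strand), all of them protein-coding genes.

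Members fell mostly into 3 of 27 clusters that were built without the 5 genes. All 47 barcodes of cluster 8 were members, as were 52 of 69 in cluster 1 and 16 of 40 in cluster 14. The other 25 members were spread over further clusters. Of these, 4 lay in cluster 23, whose 21 barcodes were all under 500 CPM of Snap25, with the glial gene Apoe among their leading genes. Rtp1 stood at 115.3 CPM in the members of cluster 8, 75.6 in those of cluster 1, 35.1 in those of cluster 14 and 20.2 in the rest. Grp did not follow this order, with 36.2, 26.5, 42.1 and 15.4 CPM. The 24 barcodes of cluster 14 that were not members held Gas7 in 91.7% of cases and had a median score of 1.26. Its 16 members held Gas7 in every case, Rtp1 in 56.2%, Chil1 in 50%, and Cldn9 and Grp in 37.5% each. The median score of members was 5.06 in cluster 8, 3.86 in cluster 1 and 3.14 in cluster 14.

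Satellite glia transcripts set cluster 1 apart. The 11 glia markers summed to a median of 8992 CPM in its members (2561 to 19967), with 50 of 52 at 3000 CPM or more. In the members of cluster 8 the median was 758 CPM (362.7 to 2364) and in those of cluster 14 it was 793, with 0 at 3000 CPM or more in either. Apoe, a lipid carrier of glia, stood at 5519 CPM in cluster 1 and 253.5 in cluster 8. Over all members 62 of 140 (44.3%) reached 3000 CPM against 23.7% of the 934 other neurons, none of the 11 markers was at 0 in members, and the highest member reached 146736 CPM. Glia attached to a neuron and free glial RNA in its droplet cannot be told apart, and the part of these transcripts in the results was not tested except where values without such barcodes are given.

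**Figure D2:**
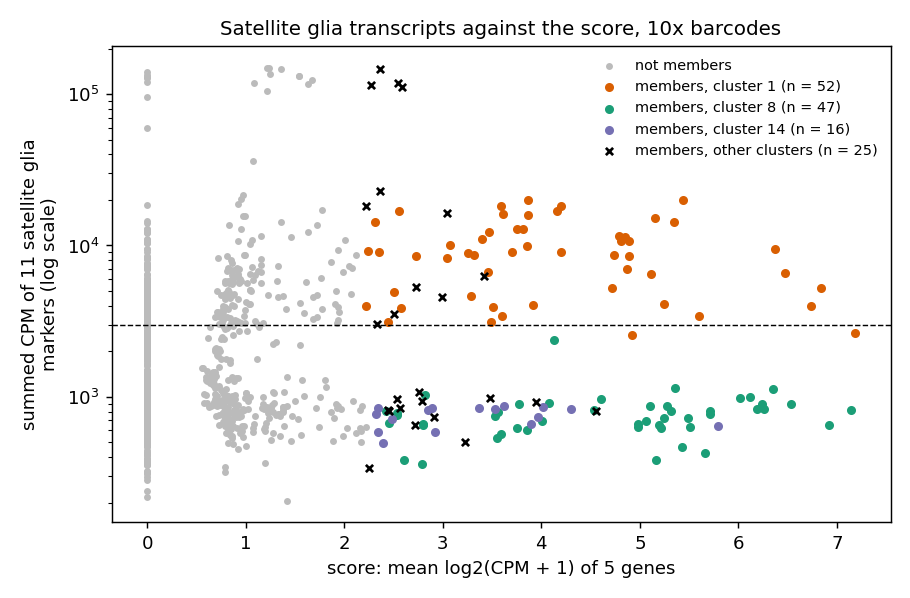
Summed CPM of the 11 satellite glia markers (log scale) against the score for every barcode, with members coloured by cluster and the dashed line at 3000 CPM. Members of cluster 1 lie almost all above the line and those of clusters 8 and 14 below it. Median scores were 5.06 in cluster 8, 3.86 in cluster 1 and 3.14 in cluster 14.

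Outside the glia markers, several neuronal genes followed the order of Rtp1 over the clusters. Gal stood at 535 CPM (exact Poisson 95% interval 502 to 570) in cluster 8 and 299.9 (276.8 to 324.4) in cluster 1. Tmc3 stood at 233.5 and 186.8 CPM, C1ql3 at 632 and 479, and Oxtr at 54.6 and 40.4. All 4 were lower in cluster 14, at 136.9, 111.2, 280.8 and 18.7 CPM. Only the score genes were kept out of the clustering, and Gal was among the leading genes of cluster 8. The 4 genes were also picked among those high in members, so their order is a description. A few genes marked only some members: Calb2, a calcium-binding protein, had a UMI in 8 of them, 6 in cluster 8, and Penk, an opioid peptide precursor, in 2.

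The next comparison asked what the members expressed beside the genes that chose them. Members and other neurons come from 1 library, so there is no replicate error and no test, and intervals cover counting error only. Of 14555 genes with at least 20 UMIs, 1332 (9.15%) had a ratio over 2 and 1195 (8.21%) a ratio under 0.5, with a median of 1.07. Of 543 genes in the lists, 72 (13.3%) passed 2-fold upward and 29.1% downward. Genes that vary with the 5 score genes enter these counts by the choice of members, so the counts are a description.

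Among peptides, Gal, which encodes the neuropeptide galanin, stood at 315.2 CPM in members and 35.1 in other neurons, a ratio of 8.97 (8.42 to 9.55). Over single barcodes its median was 149.8 CPM in members, with a highest value of 3755, and 0 in other neurons, whose highest was 3371, so the sets overlapped. It had a UMI in 75% of members and 38.97% of others, and in 62.9% and 18.2% after thinning. Adcyap1, the precursor of the peptide PACAP and named here after its values were seen, stood at 286.7 and 63.9 CPM. Sst, which encodes somatostatin, stood at 1.39 and 24.1 CPM. Of the 24 peptide genes with at least 20 UMIs, 4 (16.7%) passed 2-fold upward and 12 (50%) downward, against 9.15% and 8.21% of all genes, with a median ratio of 0.575.

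Several receptors stood higher in members than in other neurons. Gpr4, a proton-sensing receptor, stood at 18.2 CPM in members and 1.14 in other neurons (ratio 16.03, 11.7 to 22.01), and at 9.37 CPM in the 34 barcodes of low Snap25. Cckbr, the gastrin and cholecystokinin receptor, stood at 24.8 and 2.04 CPM, and Oxtr, the oxytocin receptor, at 35.9 and 4.83. Adra1a, an adrenergic receptor, stood at 9.19 and 0.552 CPM on 53 UMIs, and the ATP-gated channel P2rx2 at 546 and 262.5. A UMI of Gpr4 was seen in 55 members and 55 other neurons, of Cckbr in 65 and 73, and of P2rx2 in 97.1% and 97.3%. In the opposite direction, the serotonin-gated channel subunit Htr3a stood at 85.8 and 581 CPM, Htr3b at 5.201 and 87.1, and the proton-sensing receptor Gpr65 at 1.39 and 57.6. Of 27 gut hormone and metabolite receptors 7 (25.9%) passed 2-fold upward and 12 (44.4%) downward, against the same 9.15% and 8.21%, with a median ratio of 0.705.

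Channels showed both directions. Tmc3, of the transmembrane channel-like family, stood at 180 CPM in members and 53.7 in other neurons. It had a median of 164.3 CPM over members and 13.4 over others, and 130 of 140 members lay above that second median. Trpv4, a channel opened by warmth and osmotic swelling, stood at 5.201 and 0.308 CPM on 30 UMIs, and Kcnn3, a calcium-activated potassium channel, at 21.3 and 3.83. The mechanically gated Piezo1 stood at 0.347 and 8.14 CPM, the potassium channel Kcnk18 at 0.693 and 14.6, and the nicotinic subunit Chrnb3 at 0.520 and 33.6. These 3 low values rest on 2, 4 and 3 UMIs in members.

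Outside the lists, the highest ratios by the naming rule were those of Rmst (13.97), a long non-coding RNA, Clic5 (9.91), Adprhl1 (9.34), Cpne7 (8.86), Nt5dc2 (7.46) and C1ql3 (7.27). C1ql3 and C1ql2 encode secreted proteins of the C1q family that act at synapses. C1ql3 stood at 433.8 CPM in members and 59.6 in others, and C1ql2 at 119.8 and 18.3. The synaptic vesicle genes Doc2b and Syt13 stood at 79.2 and 43.9 CPM in members against 8.26 and 4.92, and the transcription factor Bcl11a at 30.9 against 4.82. The lowest ratios were those of Dcdc2a (0.0451), Pkib (0.0651) and Ifi27l2a (0.0963). Over all barcodes, the genes whose levels were most like the score, by Spearman correlation across cells, were Ahi1 (0.45), Ppfia2 (0.44), AW551984 (0.44), C1ql2 (0.44) and Itm2a (0.44). These values are descriptions over cells of 1 library and depth differs between barcodes.

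Ratios were also taken without the barcodes rich in glia transcripts. Among the 78 members and 713 other neurons under 3000 CPM of glia markers, Gal was 10.7 times, Gpr4 20.3 times, Oxtr 9.55 times and C1ql3 8.03 times as high in members. Cckbr was 14.06 times, Kcnn3 7.12 times, Tmc3 3.73 times and P2rx2 2.297 times as high, each above its ratio over all barcodes. Adra1a had a lower ratio, 12.26 (6.94 to 21.45) against 16.66 over all barcodes. The ratios of Apoe and Fabp7, which are among the markers that chose these barcodes, were 4.17 and 4.37 over all barcodes. Of the 11 glia markers 8 (72.7%) were over 2-fold higher over all barcodes, against 9.15% of all genes.

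Members were also compared with other neuron types of the ganglion, each taken as the 140 highest scores of its own markers, that is 12.64% of all barcodes. Members shared 26 (18.6%) with the Uts2b and Cckar type, 22 (15.7%) with the Pnlip and Col6a5 type, 12 (8.57%) with the Tgm2 and Pdk4 type and 0 with the Efcab6 and Trpa1 type. The first 2 shares lie above 12.64% and the other 2 below it. The lists are of equal length, so each share holds for both. The median marker score of the Uts2b and Cckar type was 3.22 in members and 1.74 in other neurons, and that of the Pnlip and Col6a5 type 2.05 and 0. Oxtr is among the markers of the Uts2b and Cckar type. Cckar, the cholecystokinin receptor, stood at 339.1 CPM in members and 298.6 in others.

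The picked cells gave these genes replicates that the rule had not used. The same score took 57 cells (12.7%, the nearest whole number of cells to the share of members in the droplet library), with scores of 1.92 to 7.37. Score genes at 10 reads numbered 5 in 12 of these cells, 4 in 10, 3 in 10, 2 in 23 and 1 in 2, so 32 of 57 held at least 3. Type cells had more reads than others, with medians of 1949936 and 1584052. In 18 mice with at least 2 type cells and 2 others, per-mouse means of log2(CPM + 1) were compared in limma with the mouse as a block. The other picked cells are not a random sample of the ganglion, so they are not the same comparison group as the 934 droplet neurons. The 5 score genes were not tested here.

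Of 12697 genes tested, 1781 (14%) rose and 1794 (14.1%) fell in type cells at a limma adjusted p under 0.05, and the median log2 change was -0.03. Of the 15 highest genes outside the lists in the droplet library, 14 were tested (not Rmst) and 14 rose, with a median log2 change of 2.92. All 10 of the lowest fell, with a median of -2.82. Of the list genes named as highest, 26 were tested, of which 22 rose, 1 fell and 3 did not pass. Of those named as lowest, 49 were tested, of which 30 fell, 1 rose and 18 did not pass. These genes were named for their droplet ratios, and the picked cells are separate samples. The measures differ: ratios of summed UMIs in the droplet library, and per-mouse means of log2(CPM + 1) of reads in picked cells. Within the mice numbered up to 39, 1033 genes rose and 1047 fell.

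**Figure D3:**
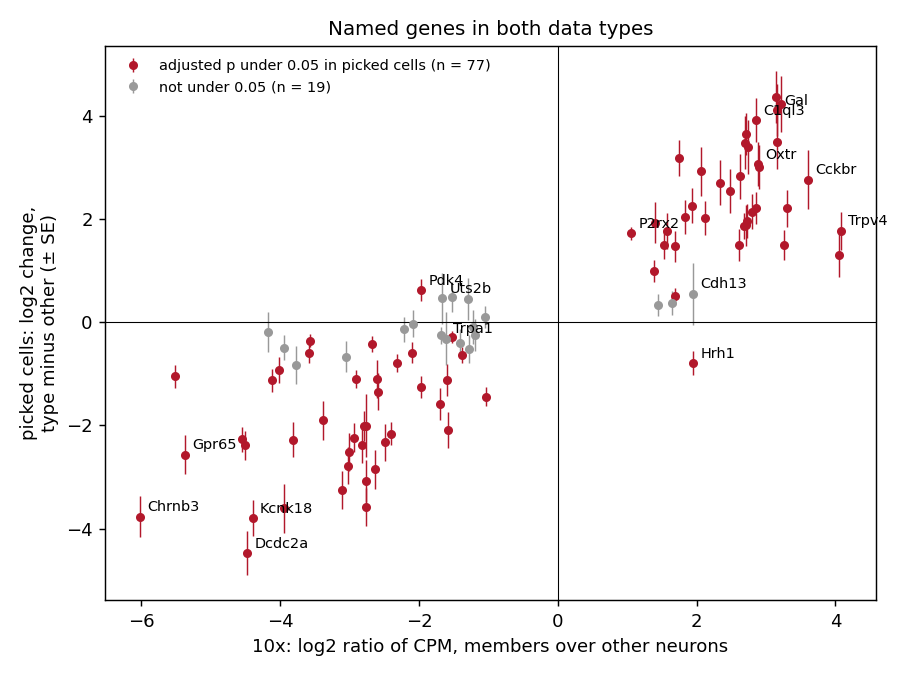
For 96 named genes with a UMI in members, the log2 change in picked cells (type minus other, ± SE over 18 mice, limma) against the log2 ratio in the droplet library. Red points have an adjusted p under 0.05 (77 genes), and 75 of them lie in the same direction in both data types.

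Gal rose by 4.11 ± 0.51 (SE) on the log2 scale, with a limma adjusted p of 2.67e-06. Its per-mouse means were 0 to 10.9 in type cells with a median of 6.57, and 0.23 to 6.39 in other cells with a median of 1.77. It was higher in type cells in 17 of 18 mice, and the ranges overlapped. The highest type value was that of Retro21. The highest other values were those of Retro22 (6.39), Retro44 (4.49) and Retro21 (3.98), which are among the mice with high injury transcripts named below. Retro27, also among them, stood at 2.76 in other cells.

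Oxtr ran from 0 to 7.90 per mouse with a median of 3.70 in type cells and from 0 to 1.65 with a median of 0.63 in others. It rose by 3.07 ± 0.42 (limma adjusted p 9.17e-06), and 17 of the 18 type values lay above every other value. Cckbr rose by 2.76 ± 0.57 (limma adjusted p 0.000767), in 13 of 18 mice. Its other cells reached 6.88 in Retro22 and 6.49 in Retro27, against a median of 1.25, and only 5 type values exceeded 6.88. Both are among the mice with high injury transcripts named below. P2rx2 rose in 18 of 18 mice, by 1.72 ± 0.12 (limma adjusted p 3.44e-09), from a median of 8.96 to 10.7.

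Tmc3 rose by 3.18 ± 0.35 (limma adjusted p 7.48e-07), with medians of 8.85 and 4.53 and 14 of 18 type values above every other value. C1ql3 rose by 3.92 ± 0.43, C1ql2 by 3.65 ± 0.41, Syt13 by 3.50 ± 0.52, Bcl11a by 1.87 ± 0.25 and Kcnn3 by 2.55 ± 0.43, all past the threshold. Trpv4 had a median of 1.76 in type cells and 0 in others and rose by 1.77 ± 0.38. Doc2b rose by 1.502 ± 0.29. Changes on this scale, with a pseudocount of 1 CPM, understate those of low genes. Adra1a rose by 1.31 ± 0.43 (limma adjusted p 0.0252), and the adjusted p was 0.0505 to 0.0516 without any 1 of Retro9, Retro36, Retro37, Retro52 and Retro53.

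**Figure D4:**
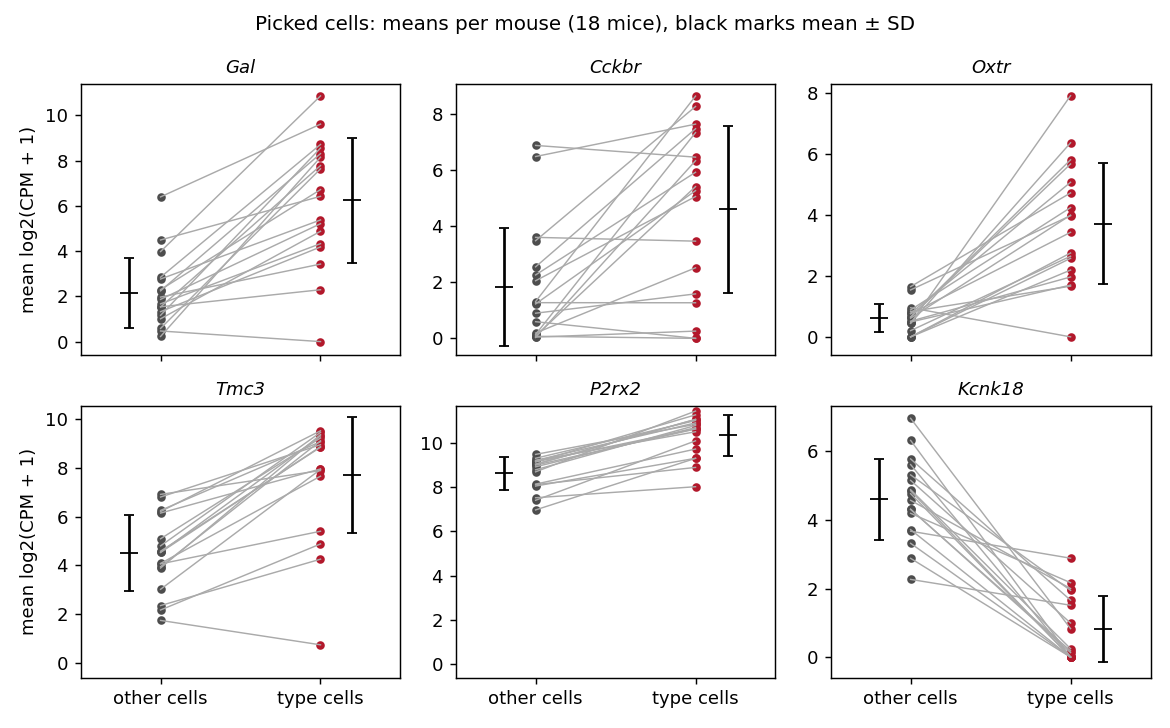
Mean log2(CPM + 1) per mouse for 6 genes in type cells (red) and other picked cells (grey) of the same 18 mice, joined by lines, with mean ± SD in black. P2rx2 rose in every mouse and Kcnk18 fell in every mouse, while Cckbr overlapped widely.

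Kcnk18 fell by 3.797 ± 0.35 on the log2 scale (limma adjusted p 7.07e-08), in 18 of 18 mice, and 17 type values lay below every other value. Piezo1 fell by 2.27 ± 0.24, also in 18 of 18. Chrnb3 fell by 3.77 ± 0.40 and Dcdc2a by 4.48 ± 0.42, each in 17 of 18. Htr3b fell by 3.74 ± 0.54 and Htr3a by 2.01 ± 0.61, the second with a limma adjusted p of 0.0162. Htr3a per-mouse means overlapped widely, from 2.51 to 10.1 in type cells and from 3.24 to 12.0 in others.

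Outside those genes, the largest rise past the threshold was that of St18, a transcription factor, by 4.69 ± 0.42 (limma adjusted p 5.92e-08), in 18 of 18 mice. Itm2a followed with 4.35 ± 0.42, Cckar with 4.19 ± 0.56, Fxyd7, a regulator of the sodium pump, with 4.11 ± 0.42, and Tmem255b with 3.97 ± 0.49. Among genes not yet described Avil, which encodes the actin-binding protein advillin of sensory neurons, had the largest fall. It fell by 4.997 ± 0.47, and Cysltr2, a leukotriene receptor, fell by 3.56 ± 0.36. Cckar rose in 18 of 18 mice here, from a median of 3.71 to 8.95, although its droplet ratio was 1.14. Trpv1, the heat and capsaicin channel, differed in the same way: it rose by 2.73 ± 0.37 in type cells and had a droplet ratio of 0.9496. Trpv1 was named after its values were seen.

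The counts by list stand beside the 14% of all genes tested that rose and the 14.1% that fell. By list, 7 of 22 gut hormone and metabolite receptors rose and 7 fell, with a median log2 change of -0.03. The risers included Cckar, Cckbr, Oxtr, Ptger2 and Ptger3. Of 17 mechanosensation genes 5 rose (Asic1, Asic2, Asic3, Kcnk2 and Tmc3) and 4 fell (median -0.07). Of 13 TRP channels 3 rose (Trpv1, Trpv2, Trpv4) and 3 fell (median -0.19). Of 23 opioid, monoamine and cholinergic receptor genes 9 rose and 7 fell (median 0.44). Of 43 transcription factors 7 rose and 16 fell (median -0.31). Of 23 peptide genes 7 rose, among them Adcyap1 (2.70 ± 0.46), and 3 fell, among them Sst (by 1.13 ± 0.21).

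Glia transcripts and part of a list of dissociation and injury genes were higher in picked type cells. Of 11 satellite glia markers 8 rose and 0 fell, Apoe by 2.92 ± 0.48 and Fabp7 by 2.01 ± 0.33. Their sum per cell had a median of 2923 CPM in type cells (255.2 to 12758) and 469 in others (96.6 to 11889), and reached 3000 CPM in 28 of 57 type cells (49.1%) and 18.1% of others. Of 16 dissociation and injury genes tested 8 rose and 0 fell, and the sum of the list had medians of 3014 and 1473 CPM. The risers were Fos, Fosb, Junb, Jund, Egr1, Ier2, Atf3 and Gadd45a. The injury genes Sprr1a (-0.09 ± 0.33) and Ecel1 (-0.22 ± 0.30) did not pass. In the droplet library the list summed to 2953 CPM in members and 2291 in other neurons. There 0 of 17 were over 2-fold higher and 2 (11.8%) lower, against 9.15% and 8.21% of all genes. In cells under 3000 CPM of glia markers, from 22 mice, Gal rose by 3.93 ± 0.62, C1ql3 by 3.99 ± 0.47 and P2rx2 by 1.70 ± 0.17. Only 29 type cells were under that level, and this fit took mice with at least 1 of them, where the main fit needed 2. That holds for every picked-cell value given under this limit, so the looser minimum and the glia limit are not separated. Without the 4 mice with high injury transcripts named below, a choice made after seeing the data, 1798 genes rose and 1916 fell in type cells. Leaving out mice does not separate injury genes between type and other cells of a mouse. The part of the injury genes in the results was not tested.

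Of the 77 named genes past the threshold in picked cells, 2, Hrh1 and Pdk4, had the direction opposite to their droplet ratio. Tgm2 (0.49), Uts2b (0.46), Prrxl1 (0.44) and Pllp (0.11) had droplet ratios under 1 and positive log2 changes that did not pass. Hrh1, a histamine receptor, had a droplet ratio of 3.87 on 25 UMIs and fell by 0.79 ± 0.24 in picked cells. In cells under 3000 CPM of glia markers it gave 0.031 ± 0.35. Pdk4, a mitochondrial kinase, had a droplet ratio of 0.255 on 6 UMIs and rose by 0.62 ± 0.21 (limma adjusted p 0.0304), and the adjusted p was 0.0508 to 0.0598 without any 1 of Retro9, Retro34, Retro44, Retro52 and Retro53. In cells under 3000 CPM of glia markers Pdk4 gave 0.049 ± 0.19 (limma adjusted p 0.899), higher in 4 and lower in 16 of 22 mice.

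The target codes allowed a comparison of how common these cells were by target, over mice with at least 4 cells. Their share of a mouse's picked cells was 11.1% ± 6.66 (SD, n = 8) under the Gast codes and 8.95% ± 9.15 (n = 13) under the Int codes. That difference did not pass an exact two-sided permutation test over mice (p = 0.565). Under Port it was 19.3% ± 6.73 (n = 8) against 9.78% ± 8.18 (n = 21) for Gast and Int together (exact permutation p = 0.00737, adjusted p = 0.0147 over the 2 comparisons). All 8 Port mice lay above the median of the others.

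The Port difference depended on how type cells were counted. It was 9.51 percentage points in this count, 4.66 (adjusted permutation p = 0.273) with the top 6.3% of scores and 3.10 (adjusted permutation p = 0.695) with cells holding at least 3 of the 5 genes. Without 4 mice with high injury transcripts (Retro21, Retro22 and Retro27 of Port and Retro44 of GastP) it was 7.48 (adjusted permutation p = 0.169). Within the mice numbered up to 39 it was 13.2 (adjusted permutation p = 0.0491), with 3 Port mice against 17. Those 3 were Retro21, Retro22 and Retro27, the Port mice with high injury transcripts, so this count is not separate from them. Among the Int codes, the 3 IntL mice had 18.8 to 25%, and those of IntP 0 to 6.67%, IntD 0 to 7.14% and IntM 5.88 to 15.4%. No test of IntL was made.

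**Figure D5:**
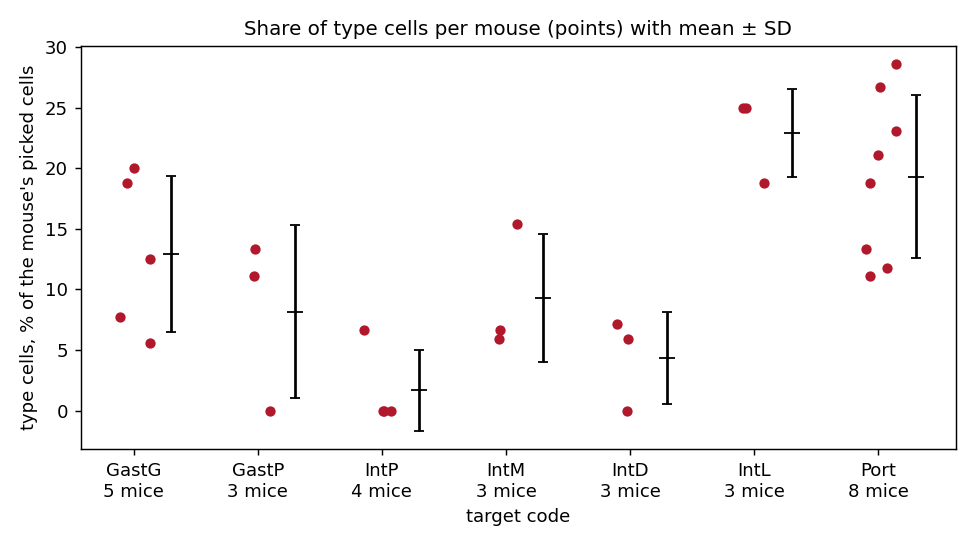
Share of type cells among a mouse's picked cells (percent, points) by target code, with mean ± SD beside the points, for mice with at least 4 cells. The means of Port and IntL are the highest and that of IntP the lowest, while single mice of different codes overlap.

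Across all picked cells, Gast and Int mice differed in few of the score genes. Of 12702 genes tested in limma over mice, 1151 (9.06%) were higher in Gast and 729 (5.74%) lower. Of the 5 score genes Chil1 was higher in Gast by 0.55 ± 0.19 on the log2 scale (limma adjusted p 0.0452), and Rtp1 gave -0.04 ± 0.18, Cldn9 0.12 ± 0.20, Grp 0.08 ± 0.28 and Gas7 -0.02 ± 0.28. Genes high in the type went in both directions: C1ql3 was higher in Gast by 2.14 ± 0.43, Tmc3 lower, at -2.54 ± 0.47, and P2rx2 lower, at -1.41 ± 0.23. Gal (0.53 ± 0.54) and Oxtr (-0.05 ± 0.23) did not pass. These values are means over all cells of a mouse, of which type cells were a minor share, and so describe the mice rather than the type.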

How the data were processed

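The droplet matrices hold deposited counts, UMIs per gene and barcode (28001 genes), which the authors made with Cell Ranger 2.0.1 on mm10, per the submitters' processing notes. The gene and barcode files are names (unit other, per the file headers). The picked-cell table holds deposited log2 values of reads with a floor at -5.64, the log2 of 0.02; 94.1% of values above the floor came back as whole reads within 1 part in 1000. For these cells the aligner is not given in the sources used. Header lines written by the authors give mouse and target. A single column (1) matched no sample and was not used. Picked cells with under 2000 genes were left out (449 of 452 kept).

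Members, gene lists and tests were chosen with earlier results of these data known. UMIs were summed per set and scaled to CPM. Ratios carry exact binomial-based intervals for 2 Poisson counts and shares exact Clopper-Pearson intervals, both at 95% and for counting error only. A true ratio of 2 was held in 95.5% of 2000 pairs simulated as Poisson counts. That checks the calculation only and leaves out the spread between cells. Barcodes were clustered without the 5 score genes (scanpy 1.11.5, leidenalg 0.10.2, 2000 variable genes, 30 principal components, 15 neighbours, resolution 1.5).

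Named genes were the 5 score genes, the 2 highest and 2 lowest past 2-fold per list, then, of all other genes, the 15 highest and 10 lowest (at least 200 UMIs, in at least 50% of the set), and in picked cells also the 5 highest and 5 lowest further changes. Picked cells were compared in limma 3.58.1 (R 4.3.3) on genes with 10 reads in 5% of cells, adjusted by Benjamini-Hochberg over all genes. Type and other cells come from the same mouse, so the mouse was a block. In simulated data 77% of 200 genes changed by a log2 value of 1, and 99% at 2, were recovered for the type comparison, and 91.5% and 99.5% for Gast against Int.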

Additional observations from a re-analysis of the deposited data

Results flagged for a closer look

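Of 4 IntP mice, Retro12 had 6.67% type cells (1 of 15 cells) and the other 3 had 0 of 6, 7 and 17 cells. The 6.67% met the rule for a value apart from its group, but it is a single cell, and with the other 3 mice at 0 any type cell would have met it. Chance flags about 1 in 20 groups, and 3 groups of mice were looked at.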

How the results depend on the processing

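Limits on the counts come first from the thresholds. In percent of the genes tested, 9.15 were higher and 8.21 lower in members. With a minimum of 100 UMIs these were 6.56 and 5.47, and with no minimum 12.5 and 22.2. At a fold of 1.5 they were 18.7 and 13.2, and at a fold of 4 they were 1.77 and 3.71. Members with at least 3 of the 5 genes numbered 73.6%, and 32.1% after thinning to 13000 UMIs. Leaving a gene out of the score kept 85% (Gas7) to 95% (Grp) of the members. In picked cells the mice numbered up to 39 gave 1033 risen and 1047 fallen genes. Leaving out 1 mouse gave 1631 to 1805 and 1609 to 1822. Without the replicate block there were 1529 and 1550. With at least 1 type cell per mouse in place of 2 there were 1996 and 1589. Under 3000 CPM of glia markers, also with at least 1 type cell per mouse, there were 1230 and 958. That limit was an alternative chosen after seeing the data. For Gast against Int shares, the top 6.3% of scores gave a difference of -0.50 percentage points in place of 2.17. For Port, 4.66 (top 6.3%), 3.10 (3 of 5 genes) and 7.48 points (without the 4 mice, chosen after seeing the data) did not pass. Among gene values, Uts2b went from 0.316 to 1.36 with scaled score genes and 1.54 without Gas7 in the score. Under 3000 CPM of glia markers the ratio of Grik3 was 0 on 26 UMIs, of Fabp7 0.989 and of Apoe 0.893, and the picked-cell change of Hrh1 was 0.031 and of Pdgfrb -0.052. Apoe and Fabp7 are among the markers whose sum was limited there, so their shift follows from the limit. The cause of the other shifts was not tested. Of all droplet gene values under the alternatives, 84.2% stayed within the interval of the reported value and 15.6% moved outside it with their direction kept. Of all picked-cell values, 3.60% lost and 0.680% gained the threshold in the type comparison, and 2.63% lost and 5.26% gained it in Gast against Int.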
